A study of Mus musculus with 12 samples.

Results

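RNA from the intestine of mice that received no radiation was compared between the pair of control groups that stood beside the HH and LL irradiation modes. These controls are 6 of the 12 libraries of the series, chosen by their labels alone: HH_Ctrl 1, 2 and 3 and LL_Ctrl 1, 2 and 3. Of the 22063 genes listed, 12595 averaged 0.5 FPKM or more in these 6 libraries and were tested. FPKM is the number of fragments scaled to transcript length and to the mapped fragments of the library, so levels of different genes can be set side by side only per length. All 6 libraries came from female C57BL6/J mice bought at 7 to 8 weeks of age and kept for 1 week before the experiment, and the labels call the controls untreated and give them the same time of 48 h as the irradiated groups. The other 6 libraries, HH_WBI and LL_WBI, came from mice of the same sex, strain and age that had received 10 Gy to the whole body. HH is the mode with ultra-high mean and instantaneous dose rates, given with a compact linear accelerator, and LL is the mode with low rates, given with a clinical machine. The labels name approvals of a pair of institutions without saying which arm was kept where. The hour of killing, feeding, the gut segment taken and the anaesthesia of the controls are not given in the sources used here, so the arm, the site, the handling and the hour cannot be told apart. Whether each library is a separate mouse is also not stated, and the spread behind every p-value is that among libraries, which may be technical.

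The intestine is lined by enterocytes that absorb nutrients, by mucus-making goblet cells, by Paneth cells that secrete antimicrobial peptides into the crypts and by hormone-secreting enteroendocrine cells, over a stroma of immune cells, vessels, fibroblasts, muscle and nerves. Its expression changes along its length, from the duodenum with iron and calcium uptake to the ileum with bile acid and vitamin uptake. It also follows the day: the factors BMAL1 and CLOCK drive the Per, Cry and Rev-erb genes, whose products hold them back in turn, and light, feeding and glucocorticoid hormones set the phase.

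The tissue label was borne out in both groups by its defining markers. Vil1, the actin-bundling protein of the brush border, read 1034, 953 and 1099.8 FPKM in HH_Ctrl libraries 1, 2 and 3 and 813, 878 and 756 in LL_Ctrl libraries 1, 2 and 3, and in the rest of the text values of a group follow this order. Alpi, the alkaline phosphatase of the brush border, read 527, 626 and 558 against 518, 884 and 662 FPKM. The sums of FPKM per library were 554030 to 572638 in HH_Ctrl and 555155 to 568094 in LL_Ctrl, and 16290 to 16392 against 16290 to 16472 genes were above 0. The median of the genes above 0 lay at 3.41 to 3.51 FPKM in HH_Ctrl and at 4.23 to 4.26 FPKM in LL_Ctrl. Log2 values correlated across genes at 0.972 to 0.986 within a group and at 0.925 to 0.943 between the groups, a description in which the genes are not independent replicates. Depth is unknown. Judged from the steps between low values, the other 5 control libraries had 90.9% to 107.4% of the depth of LL_Ctrl 1. Among the irradiated libraries, which are used below for comparison only, LL_WBI 1 and 2 held 6.93% and 23.6% of their FPKM in genes of pancreatic acinar cells, where the other 10 libraries had 0.449% to 0.853%.

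The control groups differed widely although none had been irradiated. By limma on log2(FPKM + 0.1), 291 genes were called higher in HH_Ctrl (2.31% of those tested) and 1499 lower (11.9%), together 14.2%, where called means a Benjamini-Hochberg adjusted p under 0.05 and a log2 fold change beyond 1 in size, and every log2 fold change is HH_Ctrl minus LL_Ctrl. On this scale the change of low genes is understated. Of these, 184 and 1108 were called in each of the 6 fits that left out 1 library. The values of the groups did not overlap for 2459 genes with HH_Ctrl above (19.5%) and 4806 with HH_Ctrl below (38.2%).

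The surplus of lower calls moved with the base composition of the genes. The median log2 fold change of all genes was −0.13, and over 10 bins of GC content it went from −0.73 in the bin with the least GC, with a median GC content of 39.8%, to 0.17 in the bin with the most, with a median of 59.5%. Of the genes in these bins, 31.2% and 2.94% were called lower. Between HH_WBI and LL_WBI the same bins went from −0.12 to 0.09. When the median ratio of each library was set equal, the median log2 fold change of all genes was 0.01 and the calls were 397 higher (3.15%) and 1138 lower (9.04%). When trends on GC content and transcript length were removed within each library the median log2 fold change was 0.03, with 465 higher (3.7%) and 628 lower (4.99%). Of the calls above, 259 higher and 559 lower were also made under both of these scalings. Where a named call is not among them for the removal of GC and length trends, this is said beside it as GC-dependent, and its cause was not tested.

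**Figure D1:**
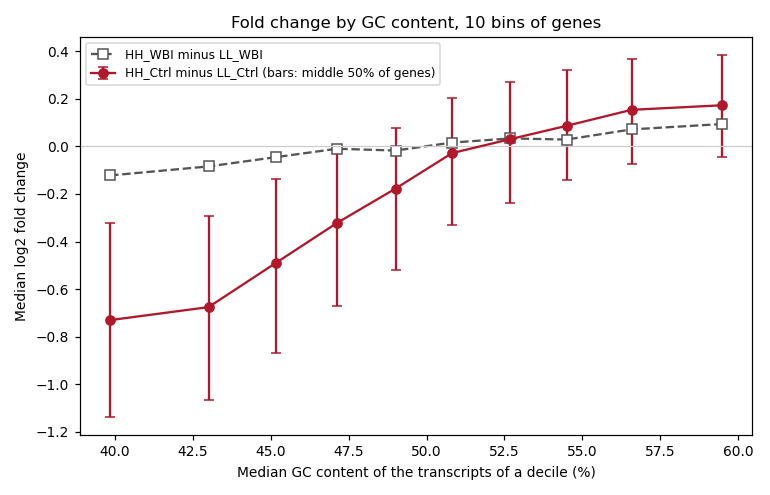
The x axis is the median GC content (percent) of 10 bins of about 1258 genes each and the y axis the log2 fold change of HH minus LL, as the median of the bin for the controls and for the irradiated libraries, with bars for the middle 50% of genes. The control medians climb from −0.73 to 0.17, and those of the irradiated libraries from −0.12 to 0.09.

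Among well-expressed genes, those with a gene name that averaged at least 4 FPKM without overlap, the largest rise was that of Mt2, a metallothionein, and the largest fall that of Aqp8, a water channel. The 10 genes called higher with the largest log2 fold change were 5.44 for Mt2, 4.78 for Slc5a8, 4.59 for Nos2, 4.55 for Plb1, 4.17 for Saa1, 3.97 for Mt1, 3.94 for Eif4ebp3, 3.72 for Bco1, 3.55 for Mbl2 and 3.34 for Duox2. The 10 called lower were −7.77 for Aqp8, −6.44 for Cyp1a1, −6.32 for Tmprss15, −5.83 for Cyp2c55, −5.77 for Ighv5-9-1, −4.60 for Ighv5-9, −4.57 for Ighv1-15, −4.45 for Igkv6-25, −4.38 for Reg1 and −4.35 for Ccl11. Slc5a8, a sodium-coupled carrier of short-chain fatty acids, read 7.47, 9.07 and 22.0 against 0.869, 0.275 and 0.104 FPKM, adjusted p = 0.000772. Eif4ebp3, a repressor of cap-dependent translation, read 126, 122 and 72.6 against 7.56, 6.66 and 5.95 FPKM, adjusted p = 6.34e-05. Neither gene's groups overlapped. Plb1, a phospholipase of the brush border, owed its size to a single library: it read 3.63, 1.41 and 179 FPKM in HH_Ctrl, so that HH_Ctrl 3 was far above all others, against 0.364, 0.250 and 0.382 in LL_Ctrl. Its adjusted p was 0.0466. The call of Plb1 ended without HH_Ctrl 1 (log2 fold change 5.26, adjusted p = 0.0578) and without LL_Ctrl 1 (4.61, adjusted p = 0.0958), 2 (4.40, adjusted p = 0.112) or 3 (4.64, adjusted p = 0.104), and it was GC-dependent (4.63, adjusted p = 0.0531). Mbl2, a soluble lectin that binds microbial sugars, read 59.8, 50 and 27.2 against 5.29, 1.08 and 7.88 FPKM, adjusted p = 0.00428, with no overlap.

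**Figure D2:**
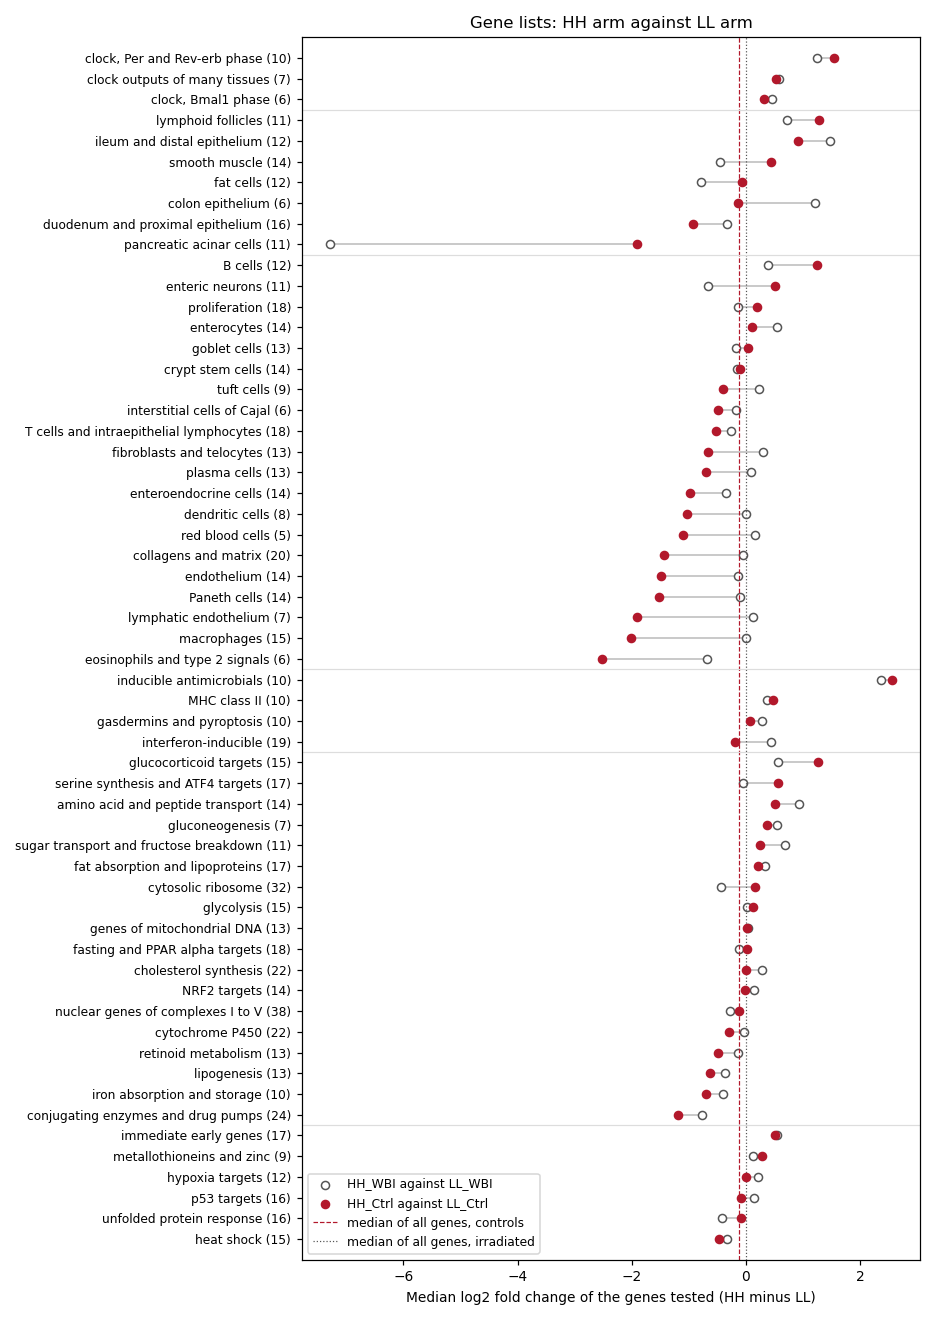
Each row is a gene list with at least 5 genes tested and the x axis is the median log2 fold change of HH minus LL, with filled red points for the controls and open points for the irradiated libraries. The dashed and dotted lines mark the medians of all genes, −0.13 and 0.00. Macrophage, endothelial and matrix lists lie far left in the controls and near 0 in the irradiated libraries, while the Per and Rev-erb phase list and the inducible antimicrobials lie far right in both.

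The genes of the molecular clock gave one of the clearest differences. Of 10 tested genes whose messages in mouse tissues peak in the phase of Per and Rev-erb, 5 were higher and 2 lower in HH_Ctrl, with a median log2 fold change of 1.54, where 2.31% and 11.9% of all genes were called. Per2, a repressor of CLOCK and BMAL1, read 10.1, 7.67 and 9.90 FPKM in HH_Ctrl and 0.897, 1.62 and 2.09 in LL_Ctrl (log2 fold change 2.57, standard error 0.28, adjusted p = 0.000447). Cry2, the partner of the PER proteins in this repression, read 9.93, 8.79 and 11.0 against 2.0, 2.19 and 2.29 FPKM (log2 fold change 2.15, standard error 0.12, adjusted p = 7.41e-05). The groups lay far apart in both genes, with every HH_Ctrl library above every LL_Ctrl library.

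Nr1d1, which encodes REV-ERB alpha, the repressor of the Bmal1 gene, went the other way. It read 1.14, 1.58 and 6.97 FPKM in HH_Ctrl against 31.7, 31.4 and 29.6 FPKM in LL_Ctrl (log2 fold change −3.66, standard error 0.57, adjusted p = 0.00194). The LL_Ctrl libraries were close together and HH_Ctrl 3 stood above the other HH_Ctrl libraries. Its paralog Nr1d2, which encodes REV-ERB beta, read 1.84, 1.41 and 4.55 against 6.15, 6.93 and 6.90 FPKM (log2 fold change −1.5, standard error 0.38, adjusted p = 0.0147). That call was GC-dependent and ended without HH_Ctrl 1 (log2 fold change −1.35, adjusted p = 0.0503).

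The PAR bZIP factors, which carry the rhythm to output genes through D-box sequences, were higher apart from Dbp, which passed no test. Tef read 15.5, 12.1 and 28.4 against 4.56, 4.92 and 6.22 FPKM (log2 fold change 1.73, standard error 0.29, adjusted p = 0.00269), and Hlf read 3.15, 2.39 and 3.24 against 0.607, 0.802 and 1.28 FPKM (log2 fold change 1.65, standard error 0.27, adjusted p = 0.00225). In both genes the groups did not overlap, and HH_Ctrl 3 was highest. Dbp, the founding member of the family, read 3.32, 2.02 and 10.7 against 0.765, 1.29 and 3.13 FPKM with an adjusted p of 0.114, and here LL_Ctrl 3 lay above HH_Ctrl 2. Per3 read 1.03, 0.786 and 2.96 against 0.262, 0.405 and 0.405 FPKM (log2 fold change 1.68, standard error 0.46, adjusted p = 0.0202), with HH_Ctrl 3 far above the rest, and its call ended without LL_Ctrl 1 (log2 fold change 1.52, adjusted p = 0.0617). Bhlhe40, a repressor that competes at the same E-boxes, had a log2 fold change of 0.88 (adjusted p = 0.0016), short of the fold limit. Per1 read 10.0, 7.27 and 8.55 against 7.97, 8.21 and 6.85 FPKM, overlapping, with an adjusted p of 0.389. Ciart and Bhlhe41 were below the limit for testing.

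Genes of the opposite phase, that of Bmal1, had a median log2 fold change of 0.31 over 6 tested. Of these, 1 that is not reported here was called higher and 0 were called lower, where 2.31% and 11.9% of all genes were. Arntl, the Bmal1 gene itself, read 13.7, 14.5 and 5.21 against 23.5, 20.7 and 17.6 FPKM, without overlap but with an adjusted p of 0.0566, HH_Ctrl 3 being the lowest. Cry1 had a log2 fold change of 0.97 (adjusted p = 0.000599), Clock −0.66 (0.00753) and Nfil3, the repressor at D-boxes, 0.69 (0.0587), none past both limits, and Npas2 overlapped between the groups. Among 7 clock outputs of many tissues, with a median of 0.52, only Tsc22d3 was called: it encodes the glucocorticoid-induced leucine zipper and read 165, 113 and 139 against 58.1, 57.6 and 56.5 FPKM (log2 fold change 1.26, adjusted p = 0.000378). The others, Wee1, Usp2, Tspan4, Lonrf3, Pik3ip1 and Coq10b, ranged in log2 fold change from −0.08 to 0.61 without a call.

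HH_Ctrl 3 stood apart from HH_Ctrl 1 and 2 in Nr1d1, Nr1d2, Dbp, Tef and Per3, which were higher in it, and in Arntl, which was lower. Between the irradiated arms, which share no library with the controls, Per2 and Cry2 were again apart, without a call by the test. Per2 read 11.3, 7.65 and 9.92 FPKM in HH_WBI and 2.07, 2.15 and 2.5 in LL_WBI, and Cry2 read 6.56, 7.35 and 6.89 against 2.46, 2.43 and 3.47. Nr1d1 read 20.8, 3.95 and 17.8 against 46.4, 23.0 and 25.8 FPKM. Of the 10 genes of the Per and Rev-erb phase, 6 had all 6 HH libraries above all 6 LL libraries and 1 had them all below, where 2.47% and 2.85% of all genes tested did.

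**Figure D3:**
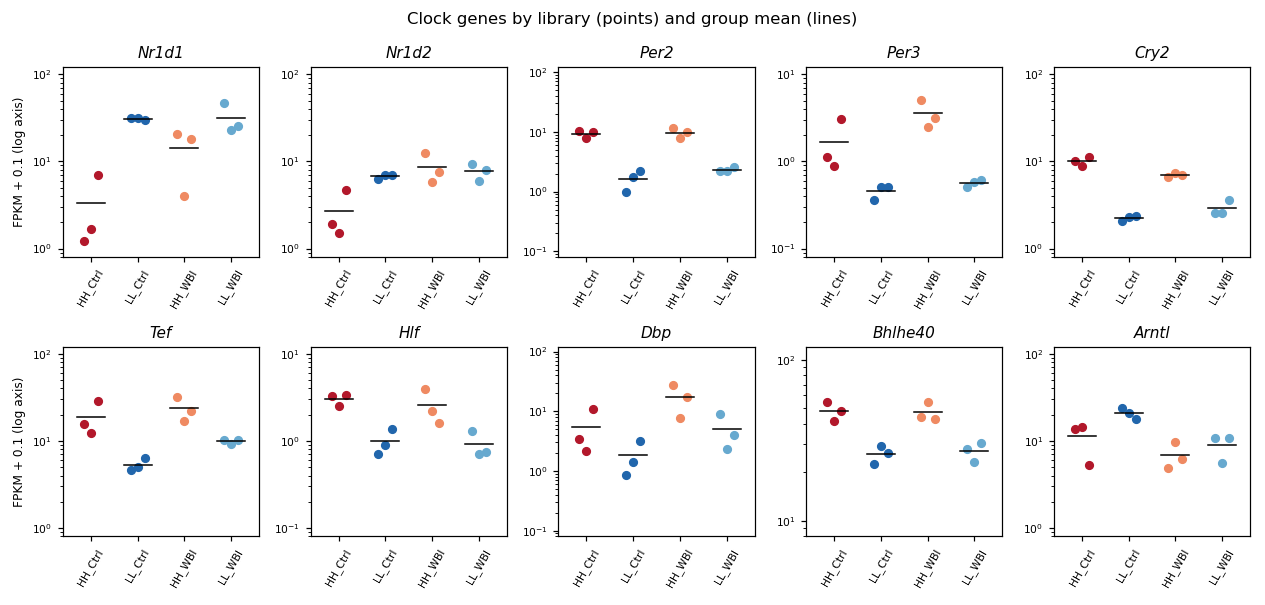
Each panel shows a clock gene, with FPKM plus 0.1 on a log axis against the 4 groups, points for libraries and lines for group means. Per2 and Cry2 are higher in HH_Ctrl than in LL_Ctrl with all libraries apart, Nr1d1 is lower, and Dbp overlaps.

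The promoters of Tef and Per3 are shown because they hold the letters through which the clock is known to act. They were taken from RefSeq on GRCm38.p6, from 250 bases before to 50 after the start of the gene, 5′ to 3′ on the strand of the gene. Capitals mark CACGTG in Tef, the E-box to which CLOCK and BMAL1 bind, and TTATGTAA or its reverse complement in Per3, the D-box to which TEF, HLF and DBP bind.
Tef, chr15:81802423-81802722, + strand: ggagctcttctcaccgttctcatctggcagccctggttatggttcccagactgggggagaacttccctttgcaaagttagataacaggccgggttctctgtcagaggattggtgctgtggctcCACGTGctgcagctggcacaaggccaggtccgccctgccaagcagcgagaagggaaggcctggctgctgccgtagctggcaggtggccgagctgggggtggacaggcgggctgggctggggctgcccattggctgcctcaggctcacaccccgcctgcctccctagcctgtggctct
Tef, second start, chr15:81811164-81811463, + strand: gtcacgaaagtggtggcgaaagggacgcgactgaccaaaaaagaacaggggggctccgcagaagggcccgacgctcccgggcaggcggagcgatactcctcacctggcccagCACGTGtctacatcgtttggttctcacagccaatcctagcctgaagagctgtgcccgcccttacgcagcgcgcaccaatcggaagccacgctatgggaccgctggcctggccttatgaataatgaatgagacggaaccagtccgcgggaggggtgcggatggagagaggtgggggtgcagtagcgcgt
Per3, chr4:151044616-151044915, - strand: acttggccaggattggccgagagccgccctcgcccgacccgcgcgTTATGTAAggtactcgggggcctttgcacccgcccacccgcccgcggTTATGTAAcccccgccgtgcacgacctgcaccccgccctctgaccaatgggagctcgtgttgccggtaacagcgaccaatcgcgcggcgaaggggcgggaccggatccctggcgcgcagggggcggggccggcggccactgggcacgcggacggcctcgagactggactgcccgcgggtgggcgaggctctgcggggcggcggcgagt
The E-box, which reads the same on both strands, began 127 and 138 bases before the starts of Tef, and the D-boxes of Per3 began 205 and 158 bases before its start. Of the 25 genes of the clock lists, 21 had a promoter in the table, with 29 promoters in all. The E-box was found in 9 of these 29 promoters, in 8 genes, and the D-box in 2 promoters, in 2 genes. Of all 32851 promoters of this length 7.15% and 0.938% held them. Of the 8 with an E-box only Tef was called: Cry1, Per1, Lonrf3, Tspan4 and Coq10b gave no call, and Ciart and Bhlhe41 were not tested. The other gene with a D-box was Coq10b. No E-box lay in the windows of Cry2, Nr1d1, Nr1d2, Dbp, Hlf or Per3. A match is a run of letters and no measured binding.

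Genes that glucocorticoids induce were higher in HH_Ctrl. Of 15 tested, 8 were called higher and 1 lower, with a median log2 fold change of 1.26, and the counts were the same with GC and length trends removed. Fkbp5, a cochaperone that restrains the glucocorticoid receptor and is induced by it, read 73.8, 52.5 and 78.4 FPKM in HH_Ctrl and 10.6, 10.1 and 6.29 in LL_Ctrl (log2 fold change 2.93, standard error 0.23, adjusted p = 0.000145). Zbtb16, a transcription factor and another induced gene, read 4.54, 2.79 and 3.84 against 0.646, 0.321 and 0.196 FPKM (log2 fold change 3.05, standard error 0.35, adjusted p = 0.000544). In both genes every HH_Ctrl library was far above every LL_Ctrl library. Map3k6, a stress kinase, was higher too (log2 fold change 2.71, adjusted p = 0.00115), and 6 members did not pass both limits.

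Mt1 and Mt2, the metallothioneins that bind zinc and copper and answer to both metals and glucocorticoids, showed the largest differences of the list. Mt1 read 921, 589.5 and 1169.5 against 76.9, 43.0 and 49.9 FPKM (log2 fold change 3.97, standard error 0.29, adjusted p = 0.000125). Mt2 read 432, 273 and 619 against 15.1, 4.92 and 11.7 FPKM (log2 fold change 5.44, standard error 0.44, adjusted p = 0.000162). HH_Ctrl 2 was the lowest of its group in both genes and still far above all LL_Ctrl libraries. Slc30a2, a zinc exporter, was also higher (46.2, 41.2 and 61.4 against 20.4, 19.6 and 20.8 FPKM, log2 fold change 1.27, adjusted p = 0.00047). Slc39a4, the zinc importer of the brush border, had a log2 fold change of −0.49 (adjusted p = 0.00227), and of 9 genes of zinc handling 3 were higher and 1, Slc39a10, lower but GC-dependent.

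Hsd11b2, which inactivates corticosterone, was higher (5.81, 6.94 and 6.24 against 2.23, 2.60 and 1.93 FPKM, log2 fold change 1.46, adjusted p = 0.000307). Sgk1, the kinase that activates epithelial sodium transport, read 751, 411 and 553 against 169.6, 187 and 202 FPKM (log2 fold change 1.58, standard error 0.20, adjusted p = 0.000826). Hsd11b1, which regenerates corticosterone, was the member called lower, at 1.16, 0.845 and 1.37 against 4.23, 3.08 and 4.30 FPKM (log2 fold change −1.70, adjusted p = 0.000787). Of the list's members, 3 had all 6 HH libraries above all 6 LL libraries, and its median between HH_WBI and LL_WBI was 0.56.

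The promoters of Mt1 and Mt2 and 1 of several promoters of Sgk1 are shown for the same reason, on the same build and by the same rule. Capitals mark the core TGCACNC or TGCGCNC of the metal response element in Mt1 and Mt2, and the glucocorticoid response element, AGAACA and TGTTCT with any 3 bases between them, in Sgk1, on either strand, and both motifs were chosen after the values had been seen.
Mt1, chr8:94178839-94179138, + strand: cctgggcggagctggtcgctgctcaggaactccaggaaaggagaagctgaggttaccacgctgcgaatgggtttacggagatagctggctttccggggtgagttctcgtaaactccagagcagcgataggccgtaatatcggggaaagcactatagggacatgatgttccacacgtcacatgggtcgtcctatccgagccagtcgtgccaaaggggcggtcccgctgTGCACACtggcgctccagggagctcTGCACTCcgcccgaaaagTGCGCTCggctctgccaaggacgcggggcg
Mt2, chr8:94172368-94172667, + strand: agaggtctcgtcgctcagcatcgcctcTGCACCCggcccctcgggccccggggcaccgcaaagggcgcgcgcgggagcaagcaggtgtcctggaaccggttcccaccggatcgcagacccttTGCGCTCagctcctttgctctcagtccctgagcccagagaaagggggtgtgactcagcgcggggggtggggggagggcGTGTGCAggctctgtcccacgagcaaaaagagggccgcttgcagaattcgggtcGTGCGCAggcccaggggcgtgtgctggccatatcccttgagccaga
Sgk1, chr10:21993640-21993939, + strand: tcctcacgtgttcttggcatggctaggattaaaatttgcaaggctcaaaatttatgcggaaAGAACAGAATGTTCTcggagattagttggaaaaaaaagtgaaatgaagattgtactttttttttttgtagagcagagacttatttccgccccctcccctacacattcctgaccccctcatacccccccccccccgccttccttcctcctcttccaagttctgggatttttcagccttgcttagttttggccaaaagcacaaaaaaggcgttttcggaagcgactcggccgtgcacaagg
The metal motif began at −23, 2 and 20 from the start of Mt1 and at −223, −128, −50 and 4 from that of Mt2, and 25.7% of all promoters held it at least once. The glucocorticoid motif began 189 bases before the Sgk1 start shown, and no window at the other Sgk1 starts searched held it. This motif was present in 3 of all 32851 promoters (0.00913%), and in 1 of the 26 promoters searched for 14 genes of the list.

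Genes of glucose production were higher and the fasting genes were mixed. G6pc, the last step of glucose release, read 243, 207 and 190.5 FPKM in HH_Ctrl against 35.4, 32.6 and 35.0 FPKM in LL_Ctrl (log2 fold change 2.63, standard error 0.10, adjusted p = 3.54e-05). Pck1, the phosphoenolpyruvate carboxykinase of the cytosol, read 532, 415 and 408 against 92.1, 109 and 90.8 FPKM (log2 fold change 2.21, standard error 0.13, adjusted p = 7.41e-05). Both were several times higher in every HH_Ctrl library than in any LL_Ctrl library, and they were the 2 called of 7 genes of gluconeogenesis. Of 18 targets of fasting and of the receptor PPAR alpha, 3 were higher and 2 lower, with a median log2 fold change of 0.01. Angptl4, the inhibitor of lipoprotein lipase, was higher (log2 fold change 1.90, adjusted p = 0.000145), while Pdk4, the kinase that turns off pyruvate oxidation in fasting, overlapped between groups (46.7, 58.0 and 18.2 against 33.0, 36.7 and 31.2 FPKM). Ehhadh, of peroxisomal fatty acid oxidation, was lower (log2 fold change −1.18, adjusted p = 0.000482, GC-dependent), and Acadm, of the mitochondrial pathway, had −0.86 (adjusted p = 0.000307).

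The control groups also differed in the genes that mark position along the gut. Of 16 tested genes of the duodenum and proximal gut, 7 were lower and 1 higher in HH_Ctrl, with a median log2 fold change of −0.93, or −0.31 with GC and length trends removed. Of 12 tested genes of the ileum and distal gut, 6 were higher and 1 lower, with a median log2 fold change of 0.91, or 0.98 with the trends removed. Pdx1, the homeobox factor of duodenum and pancreas, read 0.0180, 0.139 and 0.0210 FPKM in HH_Ctrl and 0.784, 7.37 and 4.04 in LL_Ctrl (log2 fold change −4.32, standard error 0.74, adjusted p = 0.00289), so it was near 0 in every HH_Ctrl library. Tmprss15, the enteropeptidase of the duodenum that activates trypsin, read 0.108, 0.154 and 0.0120 against 8.68, 18.0 and 18.8 FPKM (log2 fold change −6.32, standard error 0.40, adjusted p = 9.09e-05). Slc40a1, ferroportin, the exit of iron from the enterocyte, was lower at 1.03, 1.58 and 1.76 against 6.44, 11.3 and 7.92 FPKM (log2 fold change −2.47, adjusted p = 0.000375). In these genes the groups did not overlap, and LL_Ctrl 1 had the lowest value of its group.

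The hormone Cck, secreted in the upper gut after a meal, read 11.2, 12.8 and 11.5 against 53.2, 86.0 and 80.0 FPKM (log2 fold change −2.59, standard error 0.18, adjusted p = 0.000105). Gkn3 (a gastrokine), Ces1f (a carboxylesterase) and Gip (an incretin hormone) were lower, with log2 fold changes of −2.05, −1.92 and −1.10, and the call of Gip was GC-dependent and ended without HH_Ctrl 2 (−0.96, adjusted p = 0.00309). Lct and Slc5a1, the lactase and the glucose carrier of the brush border, had log2 fold changes of 0.38 (adjusted p = 0.012) and 0.70 (0.0142) and were not called. The seventh member called lower was Cybrd1, the iron reductase of the duodenum, whose call was GC-dependent and ended without HH_Ctrl 1 (−0.97, adjusted p = 0.0331), and the member called higher was Bmp8b, a growth factor. Gata4, the factor that sets proximal identity and is known to be absent from the ileum, overlapped between the groups at 70.6, 80.0 and 53.7 against 66.8, 67.8 and 65.9 FPKM.

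Of the distal genes, Osr2, a transcription factor, read 62.7, 56.8 and 58.5 against 18.0, 7.68 and 13.1 FPKM (log2 fold change 2.27, standard error 0.27, adjusted p = 0.00059). Cubn and Amn, which together form the ileal receptor of vitamin B12 bound to intrinsic factor, were both higher. Cubn read 97.4, 105 and 117 against 37.4, 23.8 and 35.6 FPKM (log2 fold change 1.74, standard error 0.17, adjusted p = 0.000311), and Amn had 1.21 (adjusted p = 0.00042), GC-dependent. Guca2a, guanylin, and Pyy, the hormone of distal endocrine cells, were higher, with log2 fold changes of 2.54 (adjusted p = 0.000848) and 2.80 (0.012), and HH_Ctrl 3 was the highest library in both. Nts, neurotensin, was also higher (log2 fold change 1.66), a call that ended without HH_Ctrl 1 (1.85, adjusted p = 0.0526), HH_Ctrl 3 (1.35, adjusted p = 0.0925), LL_Ctrl 2 (1.08, adjusted p = 0.0539) or LL_Ctrl 3 (1.76, adjusted p = 0.0708). Ces1g was the member called lower (log2 fold change −1.96, adjusted p = 0.00249).

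The genes that define the terminal ileum were near 0 in both groups. Slc10a2, the bile acid carrier, read 0.202, 0.10 and 1.21 FPKM in HH_Ctrl and 0.175, 0.131 and 0.123 in LL_Ctrl and was too low to test, and Fabp6, the ileal bile acid binding protein, read 0.167, 0.0780 and 2.59 against 0.0840, 0.787 and 0.803 FPKM, with HH_Ctrl 3 highest. Of 6 markers of the colon tested 2 were higher and 2 lower, with a median log2 fold change of −0.14, and 4 were too low to test. Among these markers Aqp8, a water channel, gave the largest fall of all well-expressed genes. It read 0.0270, 0.104 and 0.0890 against 17.2, 60.8 and 47.8 FPKM (log2 fold change −7.77, standard error 0.45, adjusted p = 7.41e-05). Slc26a3, the chloride and bicarbonate exchanger, was lower (log2 fold change −1.13, adjusted p = 0.000543, GC-dependent), while Saa1, an acute phase protein, was higher. Saa1 read 1.44, 1.54 and 25.9 against 0.198, 0.275 and 0 FPKM (log2 fold change 4.17, standard error 1.09, adjusted p = 0.017), HH_Ctrl 3 being far above the others, and its call ended without LL_Ctrl 3 (3.59, adjusted p = 0.0618).

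Of 11 pancreatic acinar genes tested, 9 were called lower in HH_Ctrl and 0 higher, with a median log2 fold change of −1.91. The summed FPKM of the list overlapped, at 3712 to 4862 in HH_Ctrl and 4009.5 to 4327 in LL_Ctrl, and most of it was Zg16, a lectin that goblet cells also make (3603, 4001 and 4788 against 3433, 2581 and 3367 FPKM). Clps, colipase, read 19.6, 23.5 and 39.1 against 118, 94.1 and 91.9 FPKM (log2 fold change −1.94, adjusted p = 0.00072) and Rnase1, the pancreatic ribonuclease, 7.12, 12.8 and 9.38 against 46.1, 35.0 and 38.6 (−2.05, 0.000344). Reg1, a lectin of acinar and upper gut cells, read 74.7, 58.3 and 15.4 against 591, 1279 and 809 FPKM (log2 fold change −4.38, standard error 0.57, adjusted p = 0.000877). Try4, a trypsin, stayed at or below 1.22 FPKM in all 6 libraries. Of 4 markers of skeletal muscle tested, Acta1, skeletal actin, was the 1 called lower (0.965, 0.831 and 4.64 against 9.18, 14.9 and 35.9 FPKM). Of 12 fat genes 2 were higher, Pck1 and Plin4, the coat protein of fat droplets, whose call (log2 fold change 1.45) ended without HH_Ctrl 1 (1.5, adjusted p = 0.0592), HH_Ctrl 3 (1.32, adjusted p = 0.0703) or LL_Ctrl 1 (0.94, adjusted p = 0.0138). Adipoq, adiponectin, read 3.98, 2.76 and 4.91 against 1.29, 7.42 and 7.41 FPKM, LL_Ctrl 1 being lowest. How much of each gut segment or of neighbouring tissue a library held was not measured, and its part in the other results was not tested.

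**Figure D4:**
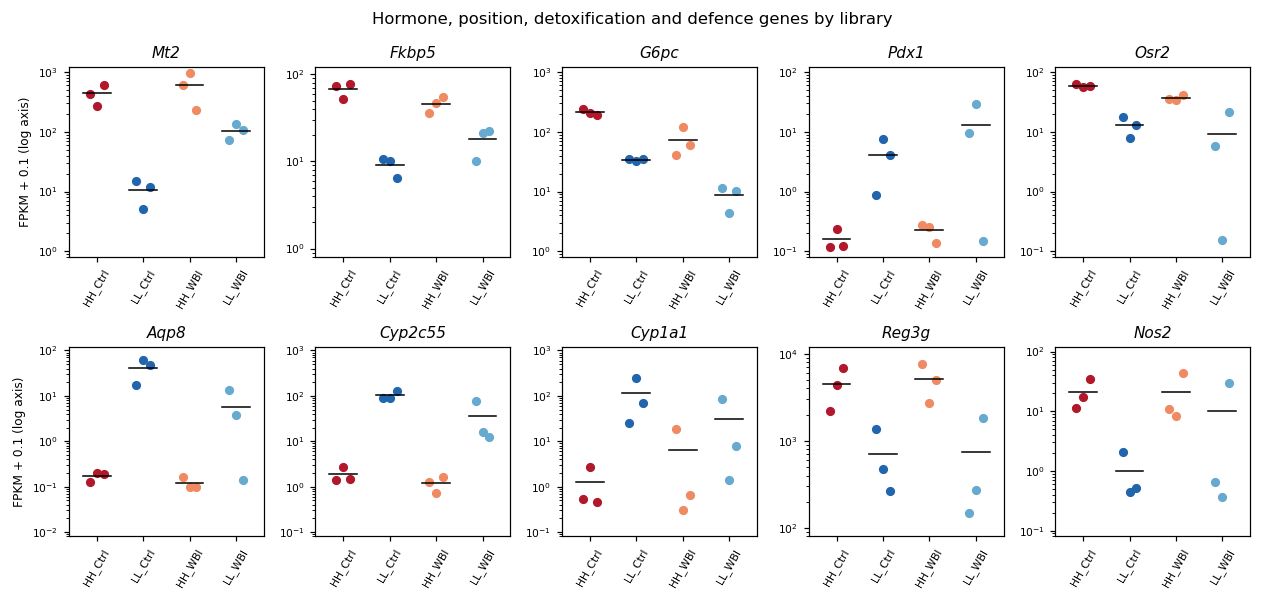
Each panel shows a gene of the epithelium, with FPKM plus 0.1 on a log axis against the 4 groups, points for libraries and lines for group means. Mt2, Fkbp5, G6pc and Osr2 are higher in HH_Ctrl than in LL_Ctrl with no overlap, and Pdx1, Aqp8, Cyp2c55 and Cyp1a1 are lower by the largest steps.

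Drug and steroid metabolism was a further difference, and it split by enzyme. Of 22 cytochrome P450 genes tested, 9 were lower and 3 higher, where 11.9% and 2.31% of all genes were. Their median log2 fold change was −0.30, or 0.07 with GC and length trends removed, when 7 were lower and 3 higher. Cyp2c55, an epoxygenase of fatty acids, read 1.28, 2.67 and 1.40 FPKM in HH_Ctrl and 89.4, 89.8 and 129.9 FPKM in LL_Ctrl (log2 fold change −5.83, standard error 0.28, adjusted p = 5.55e-05). Cyp2c66 and Cyp2c65 of the same family read 4.97, 5.74 and 5.81 against 81.4, 116 and 151 and 50.6, 55.2 and 44.3 against 251, 267 and 327 FPKM, with log2 fold changes of −4.33 and −2.49 (adjusted p = 5.55e-05 and 5.55e-05). The groups lay wide apart in all of these, and reads of such close paralogs can be split between them. Cyp3a25 was lower as well (log2 fold change −1.80, adjusted p = 0.000139).

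Cyp1a1, the enzyme that the aryl hydrocarbon receptor induces by ligands of diet and microbes, read 0.426, 2.62 and 0.355 against 24.6, 251 and 68.6 FPKM (log2 fold change −6.44, standard error 0.93, adjusted p = 0.00139). The LL_Ctrl libraries spread widely, LL_Ctrl 2 being highest, yet the lowest LL_Ctrl library was well above the highest HH_Ctrl library. Going the other way, Cyp27a1, which hydroxylates the side chain of cholesterol towards bile acids, read 118, 95.3 and 96.5 against 19.2, 17.5 and 23.7 FPKM (log2 fold change 2.36, standard error 0.13, adjusted p = 7.41e-05). Cyp4b1, an enzyme of foreign compounds and fatty acids, was higher (log2 fold change 1.61, adjusted p = 5.55e-05). Cyp3a44, chosen after its values were seen, was the other called higher, at 18.1, 13.5 and 16.2 against 2.40, 1.54 and 1.07 FPKM.

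Conjugating enzymes and drug pumps were lower on the whole, with 15 of 24 called lower, 1 higher and a median log2 fold change of −1.18, and with 9 lower and a median log2 fold change of −0.74 when GC and length trends were removed. Ugt2b5, a glucuronosyltransferase, read 2.31, 3.35 and 1.72 against 24.6, 38.2 and 46.3 FPKM (log2 fold change −3.83, standard error 0.29, adjusted p = 0.000136). Ugt2b34, of the same family, read 68.7, 68.3 and 66.4 against 257, 314 and 348 FPKM (log2 fold change −2.16, standard error 0.11, adjusted p = 6.34e-05). The sulfotransferases Sult1d1 (log2 fold change −1.5, adjusted p = 0.000211) and Sult1b1 (−1.31, 0.000145, GC-dependent) were lower, and the efflux pump Abcg2 lay at the limit (−1.0, adjusted p = 0.000186), its call being GC-dependent and lost without HH_Ctrl 1 (−0.94, adjusted p = 0.00112), LL_Ctrl 1 (−0.97, adjusted p = 0.00115) or LL_Ctrl 2 (−1.0, adjusted p = 0.00168). Of 14 targets of NRF2, the sensor of oxidants, 1 was higher (Gpx2, a glutathione peroxidase, log2 fold change 1.45) and 1 lower (Ephx1, an epoxide hydrolase, −1.41), with a median of −0.02. Nqo1, the quinone reductase often read as an NRF2 target, had a log2 fold change of −0.97 (adjusted p = 0.00164).

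Antimicrobial genes that the epithelium switches on in contact with microbes were higher in HH_Ctrl. Of 10 tested, 6 were higher and 2 lower, with a median log2 fold change of 2.56. Reg3g, a lectin against Gram-positive bacteria, read 2203, 4383 and 6876 FPKM in HH_Ctrl and 1360.0, 478 and 265 in LL_Ctrl (log2 fold change 2.86, standard error 0.62, adjusted p = 0.00786). Reg3b read 6351, 13181 and 16090 against 4413, 1291 and 829 FPKM (log2 fold change 2.72, standard error 0.62, adjusted p = 0.00966). Groups did not overlap, but spread was wide: HH_Ctrl 1 was lowest and HH_Ctrl 3 highest in HH_Ctrl, and LL_Ctrl 1 was highest in LL_Ctrl.

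Nos2, the inducible nitric oxide synthase, followed the same order of libraries, with 11.0, 17.1 and 35.1 against 1.98, 0.344 and 0.426 FPKM (log2 fold change 4.59, standard error 0.63, adjusted p = 0.00113). Duox2, the oxidase that makes hydrogen peroxide at the epithelial surface, read 5.81, 4.54 and 25.7 against 1.96, 0.650 and 0.342 FPKM (log2 fold change 3.34, standard error 0.75, adjusted p = 0.00917). The members called lower were Reg3a (69.7, 111 and 77.6 against 233, 290.2 and 305 FPKM, log2 fold change −1.70, adjusted p = 0.000432) and Pigr, the receptor that carries IgA across the epithelium. Pigr read 539, 476 and 460.2 against 1327, 1536 and 1360.2 FPKM (log2 fold change −1.52, standard error 0.10, adjusted p = 0.000108).

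Immunoglobulin genes were lower in HH_Ctrl. Jchain, the joining chain of IgA and IgM, read 129, 98.3 and 165 against 419.8, 496 and 674 FPKM (log2 fold change −2.02, standard error 0.23, adjusted p = 0.00047), and Igha, the constant region of IgA, read 1225, 908 and 1306 against 2504, 2637 and 3167 FPKM (log2 fold change −1.28, standard error 0.17, adjusted p = 0.000869). Of 162 variable segments tested, 81 were called lower and 0 higher, and 8 had a positive log2 fold change, with a median of −1.98. Their FPKM summed to 421 to 794 in HH_Ctrl and to 2610 to 3196 in LL_Ctrl, so the sums did not overlap. Variable segments share much sequence, so reads can be split between them, and single segments such as Ighv5-9-1 (0.773, 1.18 and 0.644 against 37.9, 80.9 and 43.6 FPKM) are uncertain. Of 13 markers of plasma cells 4 were lower, including Igkc (GC-dependent) and Tnfrsf17, the survival receptor of these cells (0.832, 0.230 and 0.870 against 2.27, 1.90 and 1.78 FPKM). Sdc1 and Derl3 had log2 fold changes of 0.39 and −0.70 without a call, Sdc1 being also an epithelial gene.

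Macrophage genes were lower in HH_Ctrl as a group. Of 15 tested, 12 were lower and 0 higher, with a median log2 fold change of −2.02, or −2.01 with GC and length trends removed, when 12 were lower too and 1, Mertk, higher. Mertk, a receptor for dying cells that other cells also make, read 50.9, 38.1 and 50.3 against 25.6, 26.5 and 25.8 FPKM (log2 fold change 0.83). In bulk RNA, fewer cells of a type and less RNA per cell cannot be told apart. Mpeg1, perforin-2 of macrophages, read 2.92, 1.63 and 3.31 FPKM in HH_Ctrl and 20.1, 18.8 and 21.7 in LL_Ctrl (log2 fold change −2.96, standard error 0.24, adjusted p = 0.000166). Csf1r, the receptor that keeps macrophages alive, read 5.01, 2.43 and 5.25 against 36.1, 22.8 and 32.6 FPKM (log2 fold change −2.87, standard error 0.30, adjusted p = 0.000399). Adgre1, which encodes the marker F4/80, read 0.431, 0.568 and 0.755 against 4.81, 3.81 and 6.69 FPKM (log2 fold change −2.92, standard error 0.26, adjusted p = 0.000224). The groups lay apart in all of these, and HH_Ctrl 2 was lowest in Mpeg1 and Csf1r.

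Cx3cr1, the fractalkine receptor of resident gut macrophages, Mrc1, the mannose receptor, and Ms4a6c, a membrane protein of myeloid cells, had log2 fold changes of −2.63, −2.49 and −3.33 (adjusted p = 0.000812, 0.000252 and 0.000112). Dendritic cell genes were lower in 4 of 8, where 11.9% of all genes were. Itgae, which is listed for T cells and intraepithelial lymphocytes as well, read 2.98, 3.03 and 3.37 against 8.08, 8.17 and 8.52 FPKM (log2 fold change −1.38). Cd209a, a lectin, and Itgax, CD11c, had log2 fold changes of −2.62 and −1.81. Flt3 was the fourth (log2 fold change −1.32), its call ending without HH_Ctrl 2 (−0.99, adjusted p = 0.0192) or LL_Ctrl 2 (−1.24, adjusted p = 0.0565).

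Most genes listed for eosinophils and type 2 signals (8 of 14) and for mast cells (9 of 12) were too low to test. Most of the others were lower in HH_Ctrl, but a low gene could reach the mean of 0.5 FPKM through LL_Ctrl alone, which favours such counts. Ccl11, eotaxin, the chemokine that draws eosinophils into the gut wall, read 0.405, 0.417 and 0.696 FPKM in HH_Ctrl and 12.7, 11.0 and 12.4 in LL_Ctrl (log2 fold change −4.35, standard error 0.20, adjusted p = 5.55e-05). Prg2, the major basic protein of eosinophil granules, read 0.524, 0.448 and 0.582 against 2.79, 2.75 and 3.26 FPKM (log2 fold change −2.30, standard error 0.17, adjusted p = 0.000139). With Alox15 (log2 fold change −3.15), Ccl24 (−2.73) and Siglecf (−1.39), 5 of 6 genes tested were lower and none of these groups overlapped. Of 3 mast cell genes tested 2 were called lower, the mucosal proteases Mcpt1 and Mcpt2, with log2 fold changes of −3.02 and −2.90 (adjusted p = 0.00123 and 0.000472).

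Only 3 neutrophil genes could be tested, and Retnlg reached the limit for testing through LL_Ctrl alone. Mmp9, gelatinase B, read 0.703, 0.852 and 0.851 against 10.9, 10.5 and 9.35 FPKM (log2 fold change −3.52, standard error 0.13, adjusted p = 3.54e-05), and Retnlg, a resistin-like gene, was listed at 0.0670, 0 and 0 against 2.99, 1.98 and 3.38 FPKM (log2 fold change −4.57, standard error 0.33, adjusted p = 0.000124), while Ltf, lactoferrin, was higher (1.60, adjusted p = 0.0054). Of 18 genes of T cells and intraepithelial lymphocytes 4 were lower (11.9% of all genes were) and 0 higher, with a median log2 fold change of −0.52, which was −0.07 with GC and length trends removed, when 3 were lower. The 4 included Ccr9, the receptor that brings T cells to the small intestine (0.665, 0.441 and 0.384 against 2.03, 2.87 and 2.43 FPKM, log2 fold change −2.11, adjusted p = 0.000488), and Gzmb, granzyme B (−1.20, 0.00137, GC-dependent). Itgae, given above with the dendritic cell genes, was also one of the 4. Cd3g, of the T cell receptor complex, had a log2 fold change of −0.53 (adjusted p = 0.0177).

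B cells and lymphoid follicles did not separate the groups but set libraries apart within HH_Ctrl. Cd79b, of the B cell receptor, read 18.8, 1.63 and 21.1 FPKM in HH_Ctrl and 2.48, 3.92 and 2.38 in LL_Ctrl, with an adjusted p of 0.18. HH_Ctrl 1 and 3 were high and HH_Ctrl 2 was as low as LL_Ctrl. Without HH_Ctrl 2 Cd79b was called higher (log2 fold change 2.76, adjusted p = 0.000346). Of 12 B cell genes and 11 genes of follicles none was called, although their median log2 fold changes were 1.24 and 1.27, and Cxcl13, the chemokine of follicles, showed the same order of libraries (3.64, 0.719 and 4.05 against 0.805, 1.13 and 0.706 FPKM). The genes of class II antigen presentation, 10 tested and none called, had a median log2 fold change of 0.48, and Cd74, the invariant chain, read 1188, 662 and 906 against 641, 567 and 533 FPKM. Of 19 interferon-inducible genes 1 was higher and 4 lower, or 2 lower with GC and length trends removed, when their median went from −0.19 to 0.23: Gbp3 (log2 fold change −1.91), Gbp5 (−1.83) and Iigp1 (−1.74, GC-dependent) were among the latter. Usp18 was higher (log2 fold change 1.19), a call that ended without HH_Ctrl 3 (0.98, adjusted p = 0.00358), and Irf7 had 0.72 (adjusted p = 0.00137).

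The vessels and the matrix were lower with the macrophages. Of 14 endothelial genes 12 were lower and 0 higher, with a median log2 fold change of −1.48. Tek, the angiopoietin receptor, read 0.164, 0.282 and 0.310 FPKM in HH_Ctrl and 1.89, 2.07 and 1.94 FPKM in LL_Ctrl (log2 fold change −2.58, standard error 0.24, adjusted p = 0.000241). Kdr and Flt1, the receptors of VEGF, read 0.687, 0.583 and 0.965 against 3.18, 4.56 and 5.49 and 0.384, 0.453 and 0.635 against 2.43, 2.86 and 3.27 FPKM (log2 fold changes −2.41 and −2.33). No endothelial gene's groups overlapped, since all 14 had every HH_Ctrl library below every LL_Ctrl library, as 38.2% of all genes did. Plvap, of the diaphragms of fenestrated capillaries, and Cdh5, of endothelial junctions, were lower, with log2 fold changes of −1.92 and −1.90. Of 7 genes of lymph vessels 4 were lower, among them Lyve1 (−1.90) and Mmrn1 (−2.97), and 1 was higher, Nts (1.66). Over all genes 11.9% were lower and 2.31% higher. The summed FPKM of the lymph vessel list overlapped between the groups.

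Of 20 collagens and other matrix genes 17 were lower and 0 higher, with a median log2 fold change of −1.44. Col3a1, a fibrillar collagen, read 9.07, 7.74 and 7.49 against 47.9, 30.0 and 37.3 FPKM (log2 fold change −2.21, standard error 0.17, adjusted p = 0.000142). Col4a1, of basement membranes, read 8.88, 7.29 and 7.91 against 21.5, 18.4 and 24.5 FPKM (log2 fold change −1.40, standard error 0.13, adjusted p = 0.00024), and Sparc, a binder of collagen, had −1.30 (adjusted p = 0.000126). Of 13 genes of fibroblasts and telocytes 6 were lower and 1 higher: Dcn, decorin, read 7.65, 6.64 and 9.38 against 49.1, 36.0 and 45.7 FPKM (log2 fold change −2.45, standard error 0.16, adjusted p = 9.42e-05), and Pdgfra, Lum and Bmp5 had −1.35, −2.30 and −1.83. The one called higher, Igfbp6, a binder of insulin-like growth factor, was chosen after its values were seen (15.4, 11.7 and 19.9 against 9.02, 4.67 and 5.30 FPKM, log2 fold change 1.32). Between HH_WBI and LL_WBI the medians of the macrophage, endothelial and matrix lists were 0.00, −0.13 and −0.05.

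Smooth muscle genes gave no call. Of 14 smooth muscle genes none passed both limits in either direction, and their median log2 fold change was 0.43. Myh11, the smooth muscle myosin, read 66.6, 52.8 and 58.0 against 37.2, 48.7 and 39.8 FPKM, and Des, desmin, 68.7, 71.7 and 67.2 against 38.2, 47.6 and 41.3 FPKM (log2 fold change 0.71, adjusted p = 0.000887). Among 11 genes of enteric neurons, Gal, galanin, was higher (5.57, 4.15 and 7.99 against 0.664, 1.81 and 1.25 FPKM, log2 fold change 2.21, standard error 0.36, adjusted p = 0.00234). Vip, the vasoactive intestinal peptide, was lower but GC-dependent (log2 fold change −1.23, adjusted p = 0.000575), and the call of Nos1, the neuronal nitric oxide synthase (1.08), was GC-dependent and ended without HH_Ctrl 2 (1.0, adjusted p = 0.046) or LL_Ctrl 1 (0.81, adjusted p = 0.0379). All 4 globin genes tested overlapped between the groups, and Hba-a2, whose reads can be shared with its copy, read 10.9, 8.34 and 18.8 against 19.7, 18.7 and 46.8 FPKM. Of the red cell list 1 gene was lower, Car2, a carbonic anhydrase that epithelium also makes (10.7, 16.9 and 9.44 against 34.3, 48.3 and 37.3 FPKM, log2 fold change −1.72, adjusted p = 0.000897).

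**Figure D5:**
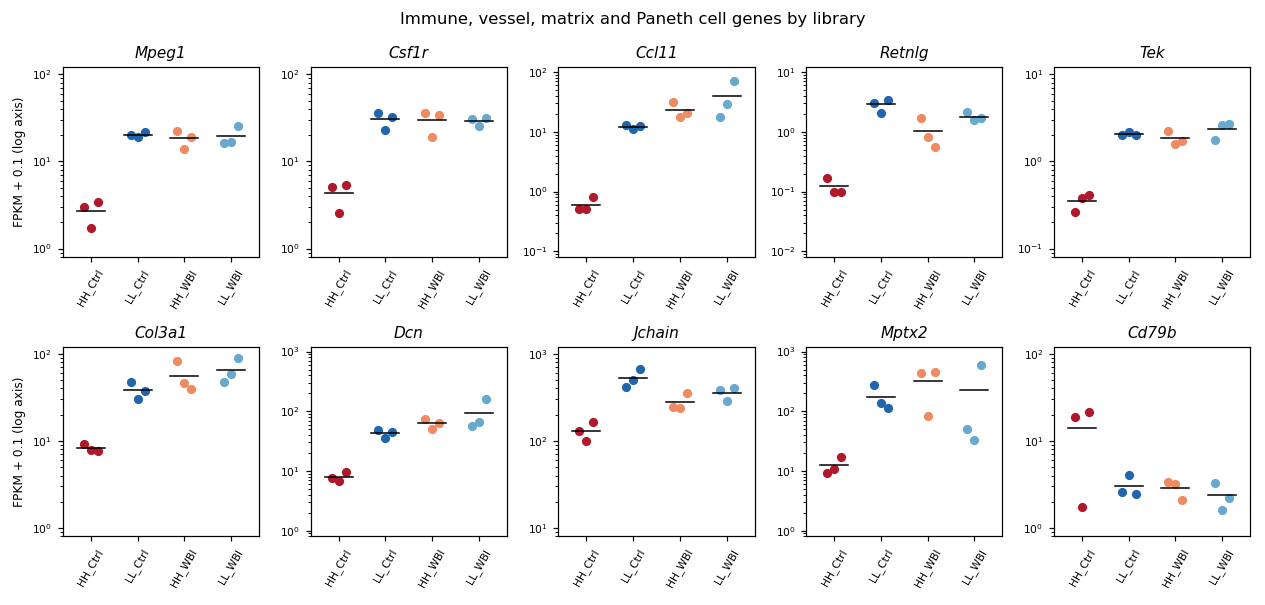
Each panel shows a gene of immune, vessel or matrix cells or a Paneth cell gene, with FPKM plus 0.1 on a log axis against the 4 groups, points for libraries and lines for group means. Mpeg1, Csf1r, Ccl11, Tek, Col3a1 and Dcn are lower in HH_Ctrl than in LL_Ctrl without overlap and overlap between the irradiated groups, while Cd79b is high in HH_Ctrl 1 and 3 only.

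Within the epithelium, secretory lineages went different ways. Of 14 Paneth cell genes 9 were lower and 0 higher, with a median log2 fold change of −1.52. With GC and length trends removed 6 were lower and 3 higher and the median log2 fold change was −0.82. Mptx2, a pentraxin of Paneth cells, read 9.09, 10.8 and 17.2 FPKM in HH_Ctrl and 276, 139.9 and 114 FPKM in LL_Ctrl (log2 fold change −3.77, standard error 0.35, adjusted p = 0.00025). Ang4, an antimicrobial ribonuclease, read 15.8, 16.1 and 49.8 against 339, 217 and 219 FPKM (log2 fold change −3.43, standard error 0.43, adjusted p = 0.000758). Defa24, an alpha-defensin whose reads can be shared with its close copies, and Itln1, a lectin, were lower, with log2 fold changes of −2.26 and −2.0 (adjusted p = 0.00208 and 0.00216). HH_Ctrl 3 was the highest HH_Ctrl library in all 4 and lay below every LL_Ctrl library. Defa21 and Defa22, alpha-defensins of near-identical sequence, went the other way without a call (Defa22 165, 143 and 791 against 128, 58.0 and 50.2 FPKM, log2 fold change 1.88, adjusted p = 0.0506), and they and Defa20 were the 3 that the removal of trends called higher.

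Enteroendocrine genes were lower in 7 of 14 and higher in 2, with a median log2 fold change of −0.98. Gcg, which encodes glucagon-like peptides, read 7.06, 5.05 and 8.58 against 24.1, 28.3 and 26.7 FPKM (log2 fold change −1.95, standard error 0.18, adjusted p = 0.000257). Ghrl, ghrelin, read 13.2, 12.2 and 7.73 against 34.0, 42.8 and 44.2 FPKM (log2 fold change −1.89, standard error 0.21, adjusted p = 0.000437). Chgb (log2 fold change −1.54), Tph1, of serotonin synthesis (−1.59), and Neurod1 (−1.60, GC-dependent) were lower as well. Chga, the granin of all these cells, read 36.3, 28.9 and 35.1 against 36.8, 43.3 and 37.7 FPKM with an adjusted p of 0.123. The 2 called higher were the distal hormone genes Pyy and Nts.

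Goblet cell genes gave 1 call of 13, with a median log2 fold change of 0.03: Muc2, the gel-forming mucin, was higher, at 109, 118 and 129 against 52.5, 50 and 47.7 FPKM (log2 fold change 1.24, standard error 0.09, adjusted p = 0.000109). Of 9 tuft cell genes 1 was lower, Siglecf, which eosinophils also express, and Dclk1 overlapped (2.71, 1.74 and 3.22 against 2.46, 4.23 and 3.40 FPKM). Of 14 stem cell genes 1 was lower, Olfm4 (93.2, 126 and 82.5 against 273, 276 and 254 FPKM, log2 fold change −1.43, adjusted p = 0.000369, GC-dependent). Lgr5, the receptor that marks crypt base stem cells, read 0.981, 1.08 and 1.28 against 2.14, 2.10 and 1.91 FPKM, without overlap but short of the fold limit (log2 fold change −0.83, adjusted p = 0.00529). Of 18 genes of proliferation none was called, with a median of 0.20, and Mki67 and Top2a had opposite signs (log2 fold change 0.72 and −0.69). Of 14 enterocyte genes, Apoa1 and Lgals3 were higher, and the rest gave no call, with a median log2 fold change of 0.10.

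Nutrient transport and lipid handling differed gene by gene. Of 17 genes of fat absorption and lipoproteins 1 was higher (5.88%) and 2 lower (11.8%), with a median log2 fold change of 0.21. Over all genes 2.31% were higher and 11.9% lower. Apoa1, the main protein of high-density lipoprotein, read 20732, 19939 and 21713 FPKM in HH_Ctrl and 7404, 6183 and 7661 in LL_Ctrl (log2 fold change 1.56, standard error 0.17, adjusted p = 0.000416). Scarb1 and Cd36, receptors for lipoproteins and fatty acids that are known to be most abundant in the upper gut, were lower: Cd36 read 14.4, 22.8 and 7.72 against 55.8, 54.8 and 80.2 FPKM (log2 fold change −2.19, standard error 0.36, adjusted p = 0.00237), and Scarb1 had −1.85 (adjusted p = 0.000632). Of 14 carriers of amino acids and peptides 3 were higher and 1 lower, with a median log2 fold change of 0.50. Slc6a19, the carrier of neutral amino acids, read 374, 384 and 551 against 160.3, 151 and 167 FPKM (log2 fold change 1.43, standard error 0.15, adjusted p = 0.000389), and Slc7a15 was higher too (1.40). Slc15a1, the peptide carrier, was higher (log2 fold change 1.08), a call that ended without HH_Ctrl 3 (0.90, adjusted p = 0.00426) or LL_Ctrl 2 (0.94, adjusted p = 0.0106). Slc6a20a, the proline carrier, was lower but GC-dependent (log2 fold change −1.39).

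Iron and vitamin A genes were among those that differed. Of 10 genes of iron, 4 were lower, or 2 with GC and length trends removed, and 1 higher, with a median log2 fold change of −0.70: Fth1, the ferritin heavy chain, read 2009.9, 2083 and 1526 against 3423, 4854 and 4313 FPKM (log2 fold change −1.16, standard error 0.18, adjusted p = 0.00189), and Hpx, hemopexin, was higher (2.23, adjusted p = 0.00712). Bco1, the enzyme that splits beta-carotene to retinal, read 12.3, 2.01 and 11.6 against 0.431, 0.448 and 0.365 FPKM (log2 fold change 3.72, standard error 0.63, adjusted p = 0.00273), and HH_Ctrl 2 was far below the other HH_Ctrl libraries. Aldh1a1, which makes retinoic acid, was lower (98.3, 134 and 75.8 against 301, 388 and 405 FPKM, log2 fold change −1.85, adjusted p = 0.000492), as were Aldh1a3 (−1.53) and Cyp26b1, which degrades retinoic acid (−1.58).

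Core energy metabolism gave few calls. None of 15 genes of glycolysis, 11 of sugar transport and 38 nuclear genes of the respiratory complexes was called, with median log2 fold changes of 0.13, 0.25 and −0.13. By limma's unadjusted p under 0.05, 3, 4 and 12 of them passed, where 53.1% of all genes did. Of 13 genes of mitochondrial DNA 1 was lower, mt-Nd3 (log2 fold change −1.15, GC-dependent), with a median of 0.03 that became 0.99 with 6 higher when GC and length trends were removed, so no direction is given for them. Of 32 cytosolic ribosomal proteins none was called, and their median log2 fold change was 0.15. Of 13 genes of lipogenesis 2 were lower, with a median log2 fold change of −0.63: Me1, malic enzyme, read 6.20, 7.76 and 4.06 against 14.7, 25.6 and 26.1 FPKM (log2 fold change −1.87, standard error 0.29, adjusted p = 0.00184), and Elovl6 was lower but GC-dependent (−1.18). Of 22 genes of cholesterol synthesis, Idi1 (log2 fold change −1.41) and Hmgcs1 (−1.12) were lower and both GC-dependent, and the median was −0.01.

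Stress genes differed in part. Dnajb9 and Hspa5, chaperones of the endoplasmic reticulum, were lower: Hspa5, which encodes BiP, read 69.7, 71.2 and 51.8 against 171, 216 and 218 FPKM (log2 fold change −1.66, standard error 0.15, adjusted p = 0.000234), and Dnajb9 had −1.75 (adjusted p = 6.20e-05). They were among 4 lower, or 2 with GC and length trends removed, of 16 genes of the unfolded protein response, whose median was −0.09. Of 15 heat shock genes 5 were lower, or 2 with GC and length trends removed, where 11.9% and 4.99% of all genes were, and 0 were higher, with a median log2 fold change of −0.47. The 5 included Chordc1 (log2 fold change −1.66), Hspa1b (−1.65) and Dnaja1 (−1.71, GC-dependent). Hspa1a read 2.18, 1.80 and 1.22 against 3.99, 2.19 and 9.56 FPKM, LL_Ctrl 3 being highest, with an adjusted p of 0.0583. Of 17 immediate early genes Fosb was higher (11.0, 8.61 and 1.94 against 0.495, 0.622 and 1.27 FPKM, log2 fold change 2.79, adjusted p = 0.00948), and Fos had 0.96 (adjusted p = 0.00216), the list's median being 0.50.

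Of 16 targets of p53, which radiation activates, 3 were lower (18.75%) and 0 higher in these unirradiated libraries. Over all genes 11.9% were lower and 2.31% higher. The median log2 fold change of the list was −0.08, and with GC and length trends removed no member was called. Ccng1, cyclin G1, read 7.50, 6.87 and 5.65 against 17.1, 22.4 and 21.2 FPKM (log2 fold change −1.59, standard error 0.14, adjusted p = 0.000234), Fas had −1.16, and Mdm2, the ligase that degrades p53, −1.03. All of these calls were GC-dependent, and that of Mdm2 ended without HH_Ctrl 2 (−0.92, adjusted p = 0.000663) or LL_Ctrl 1 (−0.99, adjusted p = 0.00289). Of 10 genes of pyroptosis, Gsdme, a gasdermin, was higher (14.8, 14.4 and 28.5 against 5.97, 4.12 and 6.08 FPKM, log2 fold change 1.76, adjusted p = 0.00201), and Casp1, which cleaves gasdermin D, was lower but GC-dependent (31.2, 32.0 and 26.2 against 88.2, 92.3 and 90.4 FPKM, log2 fold change −1.60, adjusted p = 7.41e-05).

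Among 318 KEGG pathways with 15 to 300 genes tested, 5 of the 6 lowest medians belonged to pathways filled with immunoglobulin segments, an order that changed with GC and length trends removed. Asthma had −1.60 over 102 genes, of which 86 were immunoglobulin genes, and −0.07 without them. African trypanosomiasis (−1.40), the intestinal immune network for IgA production (−1.37), primary immunodeficiency (−1.34) and Staphylococcus aureus infection (−1.27) held 86 to 87 such genes, and without them their median log2 fold changes were −0.60, 0.00, −0.06 and −0.36. Chemical carcinogenesis by DNA adducts (−1.31) held none: of its 54 genes 32 were lower and 2 higher, which are enzymes of drug metabolism. With the trends removed this pathway had the lowest median, −0.87, and those with immunoglobulin genes had −0.64 to −0.39. The highest medians were small: 0.35 for arginine biosynthesis, with 3 of 18 genes higher and 1 lower, 0.22 for 2-oxocarboxylic acid metabolism, 0.16 for the folate one-carbon pool, 0.13 for bladder cancer, 0.11 for heparan sulfate and heparin synthesis and 0.10 for alanine, aspartate and glutamate metabolism.

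Some of the differences between the controls were seen again between the irradiated arms, and others were not. HH_WBI and LL_WBI share no library with the controls. By the same limma test 0 of 13049 genes were called between them. The smallest adjusted p was 0.081, and 1458 genes (11.2%) had a p under 0.05 before adjustment. Without LL_WBI 3 the calls were 168 higher and 162 lower. Of the 277 genes called higher in the controls and tested in both, 240 (86.6%) had the same sign between the irradiated arms, with median log2 fold changes of 1.40 and 0.92. Of 1477 called lower, 1167 (79.0%) had the same sign, with median log2 fold changes of −1.37 and −0.30, while 62.4% of all genes tested in both did. In a fit over all 12 libraries the contrast of the arms differed between unirradiated and irradiated mice at an adjusted p under 0.05 for 952 of 12921 genes (7.37%), 82 with a more positive and 870 with a more negative control contrast. These counts rest on single libraries, since without LL_Ctrl 3 they were 4 and 65, without LL_WBI 2 the first was 341 and without LL_WBI 3 the second was 1842. With the acinar genes removed and the rest rescaled they were 477 and 742.

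Over all 12 libraries 311 genes had every HH library above every LL library and 359 below. Measured by the gap on the log2 scale between the nearest libraries of the arms, the widest above included Per2 (HH from 7.65 to 11.3 FPKM, LL from 0.897 to 2.5), Eif4ebp3, Cry2, Mt1, Acox2, Cyp27a1, Mt2, Slc13a2 and Osr2. Acox2, of bile acid side-chain oxidation, and Slc13a2, the citrate carrier of the brush border, were called higher, with 13.6, 15 and 13.1 against 3.95, 4.35 and 5.43 FPKM and 169, 153 and 259 against 34.6, 41.8 and 46.4 FPKM in the controls. The widest below were Cyp2c55 (HH from 0.61 to 2.67 FPKM, LL from 12.5 to 129.9), Sprr2a1, Sprr2a2, Reg4, Cyp2c65, Prorsd1, Eif3m, Igkv3-2, Eif3e and Tvp23b. Sprr2a2, a small proline-rich protein whose reads can be shared with its copies, read 161, 213 and 276 against 3108, 3183 and 2760.3 FPKM, and Reg4, a lectin of secretory cells, 39.5, 36.5 and 32.6 against 118, 122 and 127 FPKM.

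For most macrophage genes the contrast of the arms was not the same in unirradiated and irradiated libraries. Mpeg1 read 22.1, 13.9 and 19.0 FPKM in HH_WBI and 16.4, 16.6 and 25.4 in LL_WBI, so that HH_Ctrl was the one group of the 4 with low values, and the contrast of the arms differed by −2.88 on the log2 scale between unirradiated and irradiated libraries (standard error 0.37, adjusted p = 0.01). For Ccl11 the irradiated values were 31.9, 17.7 and 20.8 against 17.3, 29.6 and 70.7 FPKM, and the difference was −3.81 (standard error 0.58, adjusted p = 0.0106). Of 15 macrophage genes 10 passed this test, between 5 and 12 of them when 1 of the 12 libraries was left out. Mpeg1, Ccl11, Csf1r, Cx3cr1, Mrc1, Ms4a6c, Tek, Retnlg, Gal and Ckm passed in each of these 12 fits and under all 3 other scalings. Of 14 endothelial genes 5 passed, with 1 to 13 on leaving out a library, and of 20 matrix genes 5, with 0 to 17. Ckm, the creatine kinase of muscle, was not called between the controls (3.57, 3.44 and 4.33 against 2.25, 2.20 and 2.34 FPKM, log2 fold change 0.71) and read 1.39, 0.997 and 1.22 against 2.88, 2.69 and 4.58 FPKM in the irradiated libraries.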

How the data were processed

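Mouse intestine was sequenced in 12 libraries, 3 in each of 4 groups, and the 6 unirradiated ones are described here. The authors deposited a single table of FPKM for 22063 Ensembl genes, which the study made with StringTie. In the submitters' processing notes 3 genome builds (GRCm39, mm39 and mm8) appear beside the aligner Bowtie 0.12.2, with no role given to any of them. The labels describe ribosomal RNA depletion and a stranded kit but call the molecule polyA RNA, while the study's methods describe oligo(dT) selection, so the library type is unsettled and antisense or overlapping genes are uncertain. Read depth is not given in the sources used here, and the FPKM are not counts, so no count test was run.

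FPKM were tested as log2(FPKM + 0.1) with limma 3.58.1 in R 4.3.3, using the trend of variance on the mean, two-sided, over genes averaging 0.5 FPKM or more, with Benjamini-Hochberg adjustment over all genes tested. Plots used matplotlib 3.10.9, and tables numpy 2.4.6 and pandas 2.3.3, all under Python 3.11.15. In simulated data, 85 of 100 genes changed by 1.5 and 96 of 100 changed by 3 on the log2 scale were called between the controls, and 47 and 87 of 100 between the irradiated arms. The comparison of irradiated arms used the same test, and the difference between both contrasts was tested as a term in a fit of all 12 libraries. Alternatives were a pseudocount of 1, no filter or a filter of 2 FPKM, median-ratio scaling, removal of trends on GC content and transcript length (known for 99.6% of genes), removal of acinar genes, a fit of all libraries, the replicate number as a block, and leaving out each library.

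Genes were named by this rule: the 10 largest log2 fold changes called in each direction among genes averaging at least 4 FPKM without overlap and without a predicted-gene name, all members of the clock lists, up to 6 members of each other list with the smallest p, 18 fixed genes, and of 318 KEGG pathways with 15 to 300 genes tested the 6 with the highest and the 6 with the lowest median. The 62 lists and these members were chosen with earlier results of these data known. The lists are described by counts and medians, with no test. Acox2, Alpi, Bmp8b, Cyp3a44, Defa20, Defa21, Defa22, Eif3e, Eif3m, Gata4, Hsd11b1, Igfbp6, Igkv3-2, Map3k6, Mertk, Myh11, Prorsd1, Reg4, Sgk1, Slc13a2, Sprr2a1, Sprr2a2, Tvp23b and Vil1 were chosen after their values were seen. Promoter sequences came from RefSeq (GRCm38.p6), matched by gene symbol. Some genes that the rule names are not reported here.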

Additional observations from a re-analysis of the deposited data

Results flagged for a closer look

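For 49 named genes called between the controls, the contrast of the arms differed between unirradiated and irradiated libraries at an adjusted p under 0.05 in a limma fit of all 12 libraries, with adjusted p from 0.01 to 0.0498. Each value below is the log2 fold change of HH_Ctrl against LL_Ctrl minus that of HH_WBI against LL_WBI. In genes of immune cells and of chemokine signalling the difference was −2.88 for Mpeg1, −2.83 for Csf1r, −3.16 for Cx3cr1, −2.58 for Mrc1, −3.16 for Ms4a6c, −2.52 for Adgre1, −1.81 for Itgax, −1.08 for Itgae, −2.80 for Mmp9, −3.61 for Retnlg, −1.49 for Prg2, −3.81 for Ccl11 and −1.84 for Ccr9. In vessels it was −2.24 for Tek, −2.32 for Kdr, −1.96 for Flt1, −1.67 for Cdh5, −2.03 for Plvap and −3.09 for Mmrn1. In matrix and fibroblast genes it was −1.96 for Col3a1, −2.01 for Dcn, −2.18 for Lum, −2.05 for Pdgfra and −2.33 for Bmp5. In immunoglobulin genes it was −1.67 for Jchain, −1.38 for Igha, −1.46 for Igkc, −3.54 for Ighv5-9-1 and −3.81 for Ighv1-15, and the variable segments share sequence with one another. In epithelial and endocrine genes it was −5.12 for Mptx2, −2.49 for Gcg, −1.25 for Slc26a3, −2.03 for Sprr2a1 and −1.98 for Sprr2a2. In genes of metabolism, protein folding, translation and the p53 response it was −1.66 for Ugt2b34, −1.23 for Sult1b1, −2.20 for Hsd11b1, −2.15 for Aldh1a3, −0.98 for Idi1, −1.03 for Chordc1, −1.10 for Dnaja1, −0.98 for Dnajb9, −0.98 for Eif3e and −1.16 for Mdm2. The contrast was more positive in the controls for 5 named genes, by 3.74 for Gal, 3.22 for Igfbp6, 3.08 for Mt2, 1.03 for Lgals3 and 0.84 for Cry2. Of 952 genes that passed this test in all, 68 passed in every fit that left out 1 of the 12 libraries and 221 passed under all 3 other scalings. Among the named genes, Itgae, Slc26a3 and Ighv1-15 passed under none of these scalings. Cdh5 passed in 1 of the 12 fits that left out a library, and Bmp5, Idi1 and Mptx2 each passed in 2. LL_WBI 1 and 2, with 6.93% and 23.6% of their FPKM in acinar genes, take part in every one of these differences, and with the acinar genes removed and the rest rescaled 477 genes had a more positive and 742 a more negative control contrast, against 82 and 870. Groups of 3 libraries are too small for a test of single outlying libraries.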

How the results depend on the processing

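Between the controls, 291 genes higher and 1499 lower became 175 and 890 with a pseudocount of 1, 465 and 628 with the GC and length trends removed, and 1642 and 4005 at an adjusted p alone. The count higher was 192 with a filter of 2 FPKM and 177 in the fit of all 12 libraries. Median-ratio scaling gave 397 and 1138. Leaving out 1 library gave 242 to 381 higher and 1371 to 1589 lower. Between the irradiated arms, where no gene was called, the fit of all libraries called 63 higher and 52 lower, and leaving out 1 library 0 to 168 and 0 to 162. For the difference between the contrasts, the 82 genes with a more positive control contrast became 53 without a filter, 346 with median-ratio scaling, 182 with the trends removed and 477 without acinar genes, and the 870 with a more negative one became 198 with the trends removed. Leaving out 1 library gave 4 to 341 and 65 to 1842.

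No pairing of the control libraries by replicate number was visible. Deviations from the group means correlated at −0.10, 0.02 and 0.04 across genes for the same-numbered pairs, and not every library correlated best with its own number. So few pairs, over genes that are not independent, cannot show whether the design paired the libraries. With the number as a replicate block 288 genes were higher and 1505 lower between the controls, 4 and 5 between the irradiated arms, and 49 and 766 had a more positive or more negative control contrast.

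Of the 224 named genes tested, 174 were called. The log2 fold change turned with the trends removed in Adipoq (0.17), Cd3g (0.15), Coq10b (0.57), Fabp6 (0.65), Gata4 (−0.064) and mt-Nd3 (0.40), with median-ratio scaling in Adipoq (0.0041), Coq10b (0.069), Fabp6 (0.040), Lonrf3 (0.052) and Npas2 (0.089), and with a pseudocount of 1 in Fabp6 (0.12). Leaving out 1 library gave −0.95 to 0.27 for Adipoq, −0.17 to 0.10 for Coq10b, −0.83 to 0.68 for Fabp6, −0.12 to 0.17 for Gata4, −0.25 to 0.10 for Lonrf3, −0.26 to 0.21 for Npas2 and −0.20 to 0.63 for Pdk4. Of these genes mt-Nd3 alone had been called. A call ended in 27 named genes with the trends removed, 27 in the fit of all libraries and 19 with a pseudocount of 1. Medians of 22 of the 62 lists moved by more than the spread with the trends removed, and of 23 with median-ratio scaling. In each of these settings 8 of the 62 medians changed sign, whether or not they moved by more than the spread. The causes were not tested. Depth is unknown, so the precision of low values cannot be given.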
